A study of Mus musculus with 8 samples.

Results

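Plat, Plau, Plaur, Serpine2 and Serpinb2, the mouse genes of the plasminogen activators, the urokinase receptor and a pair of serpins that inhibit the activators, were chosen by their symbols. All 5 were present among the 19126 genes of the deposited table. The libraries were made from RNA of the left ears of 8 C57BL/6 mice, aged 6 to 8 weeks, all of them with allergic contact dermatitis raised by dinitrofluorobenzene (DNFB), a chemical that sensitises the skin. Every mouse first received 25 µL of 0.3% DNFB, and on day 6 its left ear was painted with 10 µL of 0.25% DNFB. The 4 mice of the inhibitor group were given 10 mg/kg MMP-9-IN-1 by intraperitoneal injection, a compound that inhibits MMP-9, a matrix metalloproteinase that cells secrete. The vehicle group of 4 mice received the solvent alone, made of 10% DMSO, 40% PEG300 and 50% PBS. The procedure went on over 4 days, after which the ears were collected. The question was which transcripts of the inflamed ear differ when MMP-9 is inhibited. Levels in unpainted skin were not analysed here, and each library is a whole ear that mixes epidermis, dermis, cartilage, muscle, vessels and infiltrating cells.

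Plasminogen activators cut the circulating zymogen plasminogen into plasmin, a serine protease that dissolves fibrin and cleaves other matrix proteins. Tissue-type activator works best on a fibrin surface, whereas urokinase binds a receptor anchored in the cell membrane and so keeps plasmin formation at the surface of moving cells. Serpins stop these proteases by a suicide mechanism, in which the protease is trapped after it cuts the inhibitor. In skin, urokinase and its receptor are known from migrating keratinocytes and leukocytes at wounds, and plasmin is among the proteases that can start the activation of metalloproteinase zymogens.

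The libraries held 13863145 to 18512200 counted reads, and the table gave a read estimate for each gene. The 5 genes had from 128 reads (Plat, inhibitor mouse 1) to 17495 reads (Plaur, vehicle mouse 2) in a library, so counting error was small beside the spread between mice. For those 128 reads the exact Poisson 95% interval ran from 107 to 152, and it covers counting error only. Some libraries stood apart from the others of their group. All 15 genes of a neutrophil marker list were in the table and none was at 0 in all libraries. Their summed level was 35641 and 39977 TPM (a deposited level scaled for gene length and for the size of the library) in vehicle mice 1 and 2, against 4403 and 3981 TPM in vehicle mice 3 and 4. The sum was 27396 TPM in inhibitor mouse 2, and between 3288 and 4157 TPM in the other inhibitor mice. S100a9, at 998 to 20430 TPM over the libraries, and S100a8, at 1810 to 11980 TPM, had the highest levels of the list and weigh most in its sum. Basal keratinocyte markers such as Krt5 and Krt14, which define the epidermis, were present in every library, with summed levels of 9313 to 24468 TPM.

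In these ears the receptor gene and Serpinb2 were the most abundant of the set and Plat the least. In the vehicle group the mean level was 472 ± 486 TPM for Plaur, 315 ± 288 TPM for Serpinb2, 51.3 ± 22.7 TPM for Plau, 46.0 ± 12.7 TPM for Serpine2 and 12.5 ± 8.04 TPM for Plat (SD, n = 4). With the inhibitor the means were 158 ± 195 TPM for Plaur, 122 ± 74.0 TPM for Serpinb2, 50.4 ± 23.8 TPM for Serpine2, 34.7 ± 11.1 TPM for Plau and 8.90 ± 3.68 TPM for Plat (SD, n = 4). Plaur and Serpinb2 did not differ from each other beyond their spread in either group, and neither did Plau and Serpine2. Plat was the lowest of the 5 in all 8 libraries. Its highest vehicle value, 24.3 TPM, lay below the lowest vehicle value of any other member, 29.95 TPM. Plaur was the highest in 5 libraries and Serpinb2 in the remaining 3. The mean levels of Plat, Plau, Plaur and Serpinb2 were lower with the inhibitor, and for every member the values of both groups overlapped.

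**Figure D1:**
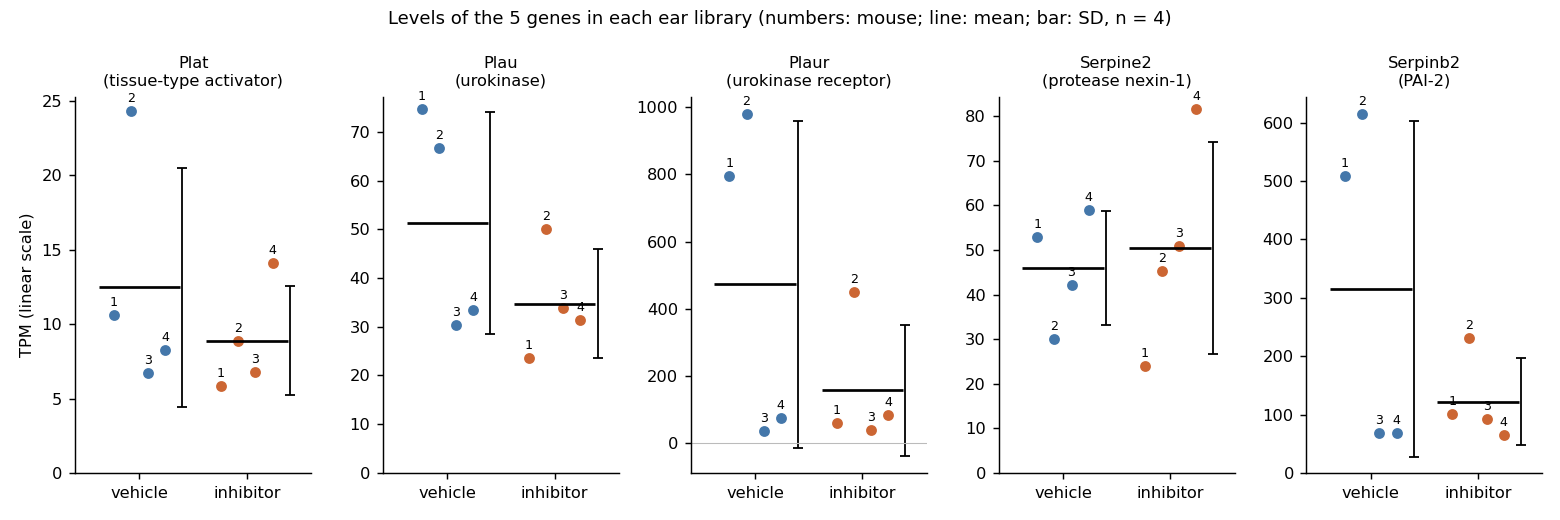
Levels of the 5 genes in TPM (vertical axis, linear, 1 scale per panel) in the vehicle and inhibitor groups, with 1 point per mouse labelled by its number, a line at the mean and a bar for the SD of 4 mice. Vehicle mice 1 and 2 lie far above vehicle mice 3 and 4 for Plaur, Plau and Serpinb2, and inhibitor mouse 2 is the highest of its group for these 3 genes.

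Sequence just upstream of the start site is printed for the members matched in the reference table, which were Plaur and Serpinb2, the genes with the widest range over the libraries, and Serpine2, whose levels did not follow theirs. The sequences are RefSeq's, on build GRCm38.p6, each 250 bases long and ending at the base before the start site; where a gene had several start sites, the most upstream was taken. They are Plaur at chr7:24462233-24462482 on the plus strand, Serpinb2 at chr1:107511173-107511422 on the plus strand and Serpine2 at chr1:79858666-79858915 on the minus strand, 3 of the 5 genes in all. Capitals mark matches, on either strand, to the AP-1 motif TGANTCA, the TATA box TATAAA and the GC box GGGCGG.
Plaur: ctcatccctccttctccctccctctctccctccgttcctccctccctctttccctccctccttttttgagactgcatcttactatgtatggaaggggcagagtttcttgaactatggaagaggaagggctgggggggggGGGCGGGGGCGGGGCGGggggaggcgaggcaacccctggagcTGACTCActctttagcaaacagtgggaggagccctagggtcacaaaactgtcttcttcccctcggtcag
Serpinb2: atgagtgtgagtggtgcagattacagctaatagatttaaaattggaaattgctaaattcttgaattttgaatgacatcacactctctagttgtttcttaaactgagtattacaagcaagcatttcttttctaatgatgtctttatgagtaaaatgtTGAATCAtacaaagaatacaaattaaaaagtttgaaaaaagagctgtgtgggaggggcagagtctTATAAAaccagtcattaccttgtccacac
Serpine2: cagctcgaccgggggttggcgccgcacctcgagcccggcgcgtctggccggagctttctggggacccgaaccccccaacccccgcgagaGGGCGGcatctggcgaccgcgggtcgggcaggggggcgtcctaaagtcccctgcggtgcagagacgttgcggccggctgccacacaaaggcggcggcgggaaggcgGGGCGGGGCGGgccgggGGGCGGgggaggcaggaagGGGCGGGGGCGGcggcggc

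The Plaur window held 1 AP-1 match, which began 69 bases before the start site, and 3 adjoining or overlapping GC boxes. The Serpinb2 window held 1 AP-1 match, beginning 94 bases before the start site, and a TATA box 29 bases before it, with no GC box. Serpine2 had 6 GC boxes, some of them overlapping, and neither an AP-1 nor a TATA match. No match to the NF-kB consensus was found in any of the 3 windows. Among 32851 promoter windows of the same length, 6.75% held the AP-1 motif, 12.4% the TATA box, 32.7% the GC box and 3.90% the NF-kB consensus. The windows also differed in base composition, with a G+C content of 59.6% for Plaur, 32.4% for Serpinb2 and 78.8% for Serpine2, where the median window had 52.4%. These matches describe letters in a window and say nothing about binding.

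None of the 5 genes passed the test between the groups. The test was edgeR's quasi-likelihood test over 15096 genes, in which a gene counts as called at a Benjamini-Hochberg adjusted p under 0.05. It called 0 of the 5 members, where percent called over all genes was 0%. In that fit no member had an unadjusted p under 0.05 (0 of 5, beside 1.04% of all genes tested, or 0.662% counting lower genes alone), and 4 of the 5 had a lower estimate with the inhibitor, beside 45.5% of all genes. Groups that did not overlap were found for 0 of 5, beside 1.19% of all genes. DESeq2 and limma-voom called 0 genes as well. In DESeq2 Serpinb2 had an unadjusted p of 0.0451, where 332 of 19082 genes were under 0.05. Adjusted p-values given for single genes are from this edgeR fit, with 4 mice per group.

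Plat encodes tissue-type plasminogen activator, known from endothelial cells, which release it into the blood. It had 10.6, 24.3, 6.72 and 8.29 TPM in vehicle mice 1 to 4. In inhibitor mice 1 to 4 it had 5.87, 8.88, 6.76 and 14.1 TPM. The vehicle mean was carried by mouse 2, and the other 3 vehicle values lay within the range of the inhibitor group. The log2 fold change, inhibitor minus vehicle, was -0.76 (SE 0.55, adjusted p = 0.999), with a 95% interval from -2.01 to 0.50. Without vehicle replicate 2 the estimate was -0.035. Markers of endothelium did not peak in the same library, since their sum over 10 genes was 144 TPM in vehicle mouse 2 within a vehicle range of 140 to 196 TPM. The endothelial sum was lowest of all in inhibitor mouse 1, at 121 TPM, where Plat was also lowest. In inhibitor mouse 4, the highest inhibitor ear for Plat, the endothelial sum was also the highest of all, at 270 TPM, and its part in the Plat level was not tested. In whole tissue, a lower level from fewer cells of a type cannot be told apart from less RNA per cell, here or for the genes that follow.

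Plau encodes urokinase, the activator that works at the cell surface. Its levels were 74.7, 66.8, 30.3 and 33.4 TPM in vehicle mice 1 to 4 and 23.7, 50.1, 33.9 and 31.3 TPM in inhibitor mice 1 to 4. Vehicle mice 1 and 2 were the highest of the 8 ears and inhibitor mouse 2 came next, while the remaining 5 ears lay between 23.7 and 33.9 TPM. The estimate was -0.77 on the log2 scale (SE 0.46, adjusted p = 0.999, 95% interval -1.83 to 0.29). Leaving out vehicle mouse 1 or 2 gave -0.53 and -0.52, and leaving out inhibitor mouse 2 gave -1.11, again with no call.

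Plaur encodes the urokinase receptor, a protein held in the membrane by a lipid anchor and abundant on activated leukocytes and wound-edge keratinocytes. It varied more between mice than the other members. Its level was 796 and 980.2 TPM in vehicle mice 1 and 2 but 37.9 and 75.4 TPM in vehicle mice 3 and 4. Among the inhibitor ears, mouse 2 had 449 TPM, and mice 1, 3 and 4 had 59.3, 39.4 and 84.3 TPM. The highest library thus had 25.9 times the level of the lowest, and both of these were vehicle ears. The SD within groups, on the log2(CPM + 1) scale (CPM are counts scaled to library size), was 2.18, and 99.6% of the genes tested had a smaller one. The log2 fold change was -1.83 (SE 1.27, adjusted p = 0.999), with a 95% interval from -4.74 to 1.08. Leaving out inhibitor replicate 2 gave -3.39, and leaving out vehicle replicate 2 gave -1.09.

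Serpinb2 encodes plasminogen activator inhibitor 2, a serpin that stays largely inside keratinocytes and macrophages and inhibits urokinase outside them. It followed the same ears. Vehicle mice 1 and 2 had 509 and 615 TPM and vehicle mice 3 and 4 had 68.7 and 68.5 TPM. Inhibitor mice 1 to 4 had 100.4, 231, 92.8 and 64.5 TPM. Only vehicle mice 1 and 2 lay above the inhibitor group, since vehicle mice 3 and 4 were below inhibitor mice 1, 2 and 3. The log2 fold change was -1.65 (SE 0.91, adjusted p = 0.999, 95% interval -3.73 to 0.44), and the estimate was -0.99 without vehicle replicate 2. In the GENCODE annotation Serpinb2 overlaps Serpinb10 on the same strand, so reads from their shared stretch could be split between them. Serpinb10 lay between 42.1 and 72.4 TPM in all 8 libraries, with its lowest value in vehicle mouse 2, where Serpinb2 was highest.

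Serpine2 encodes protease nexin-1, a secreted serpin of fibroblasts, glia and other stromal cells that inhibits thrombin, urokinase and tissue-type activator. Its levels were 52.9, 29.95, 42.2 and 58.9 TPM in vehicle mice 1 to 4. They were 23.9, 45.2, 50.9 and 81.5 TPM in inhibitor mice 1 to 4. Both the lowest and the highest ear were in the inhibitor group, and vehicle mouse 2, the highest ear for Plat, Plaur and Serpinb2, was the lowest vehicle ear for Serpine2. The estimate was 0.0031 on the log2 scale (SE 0.34, adjusted p = 0.999), with a 95% interval from -0.78 to 0.78, so changes of either sign within that interval remain possible. The sum of 9 fibroblast markers was lowest in inhibitor mouse 1, at 1095 TPM, and highest in inhibitor mouse 4, at 4581 TPM, the same ears as for Serpine2. The order did not hold among the vehicle ears, where mice 1 to 4 had sums of 1327, 1846, 2024 and 3671 TPM, with the lowest Serpine2 in mouse 2. The part of these cells in the Serpine2 level was not tested.

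The ears of mice 1 and 2 and those of mice 3 and 4 gave different pictures. Plaur was 13.4 times higher in vehicle mouse 1 than in inhibitor mouse 1 and 2.18 times higher in vehicle mouse 2 than in inhibitor mouse 2. For mice 3 and 4 the inhibitor ears had 1.04 and 1.12 times the vehicle level. Serpinb2 had vehicle-to-inhibitor ratios of 5.07, 2.67, 0.740 and 1.06 for mice 1 to 4, and Plau had 3.16, 1.33, 0.893 and 1.07. Plat had ratios of 1.81, 2.74, 0.994 and 0.588. Serpine2 was 2.22 times higher in vehicle mouse 1 than in inhibitor mouse 1, whereas inhibitor mice 2, 3 and 4 had 1.51, 1.21 and 1.38 times the level of the vehicle mouse of that number. This division of the mice was noticed from levels in these ears, so it restates them and carries no test. No label states that mice with equal numbers had anything in common. Whether the difference between the groups depended on the mouse number was not tested.

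**Figure D2:**
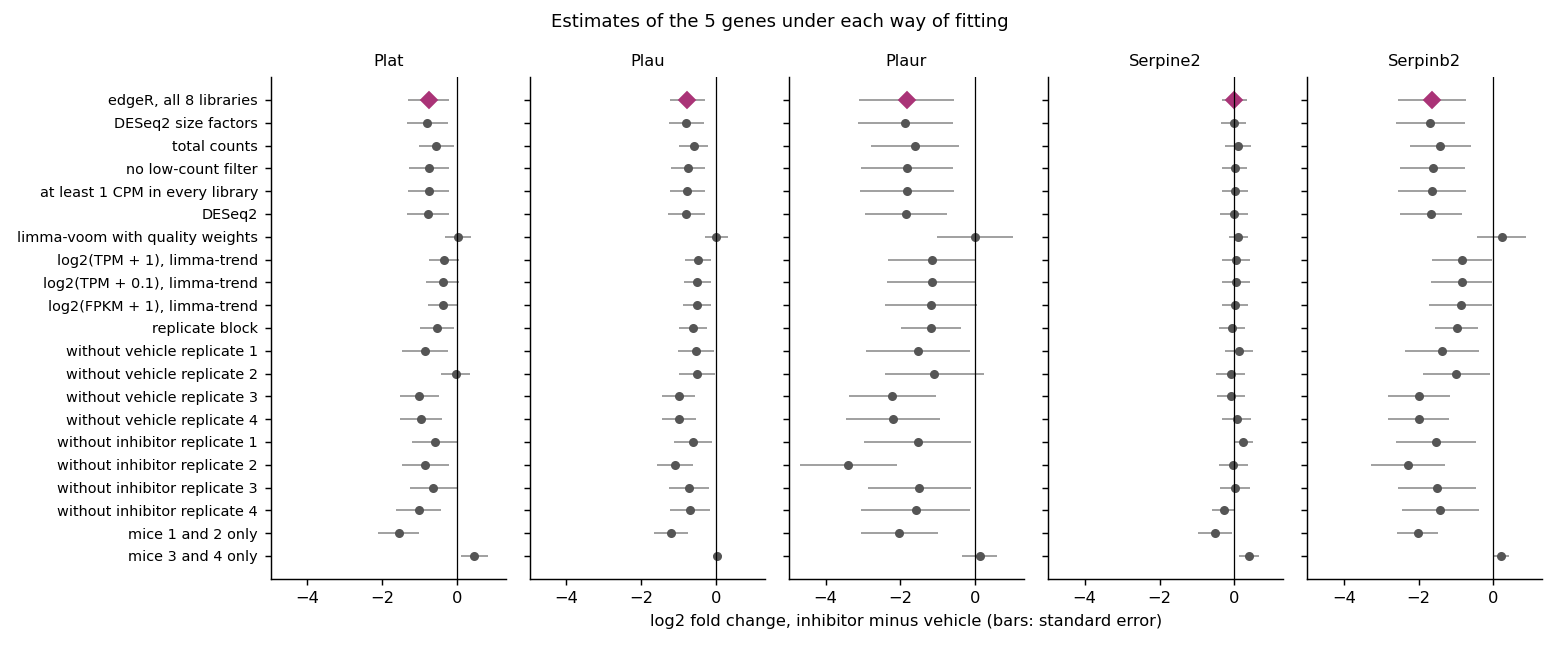
Log2 fold change, inhibitor minus vehicle (horizontal axis), of each gene with all 8 libraries (diamond) and under each other way of fitting (points), with bars for the standard error. Estimates of Plat, Plau, Plaur and Serpinb2 sit below 0 in most rows and close to or above 0 with voom quality weights or with mice 3 and 4 only, while Serpine2 runs from -0.51 to 0.38.

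Neutrophil and red blood cell marker sums were highest in the same ears as Plaur and Serpinb2. The same 3 ears, vehicle mice 1 and 2 and inhibitor mouse 2, had the highest neutrophil sums and the highest Plaur, Plau and Serpinb2. The 6 red blood cell markers, globin genes among them, none at 0 throughout, summed to 21907, 22507 and 6037 TPM in those ears and to 220 to 1082 TPM in the other 5. Basal keratinocyte, sebaceous and T cell sums were instead lowest in vehicle mice 1 and 2, with T cell sums of 5.13 and 5.82 TPM there and 88.5 and 178 TPM in vehicle mice 3 and 4. The 11 activated-keratinocyte markers, among them Krt6a and Sprr1b, all in the table and none at 0 throughout, summed to 6483 and 7992 TPM in vehicle mice 1 and 2. They summed to 4037 and 2573 TPM in vehicle mice 3 and 4 and to 2348 to 3956 TPM in the inhibitor ears, with 3291 TPM in inhibitor mouse 2. The 12 macrophage markers did not follow that order, with 2100 to 3386 TPM in the vehicle ears and 610 to 5154 TPM in the inhibitor ears. Inhibitor mouse 1 had the lowest macrophage sum of the 8 ears and also the lowest Plat, Plau and Serpine2. Outside the 3 ears with the most Plaur, the neutrophil and red blood cell sums did not keep the order of the genes. Vehicle mouse 3 had the highest neutrophil sum of the remaining ears, 4403 TPM, and the lowest Plaur, 37.9 TPM. Inhibitor mouse 1 had the lowest red blood cell sum, 220 TPM, and the highest Serpinb2 of the remaining ears, 100.4 TPM. The part of these cell types in the levels of the 5 genes was not tested.

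**Figure D3:**
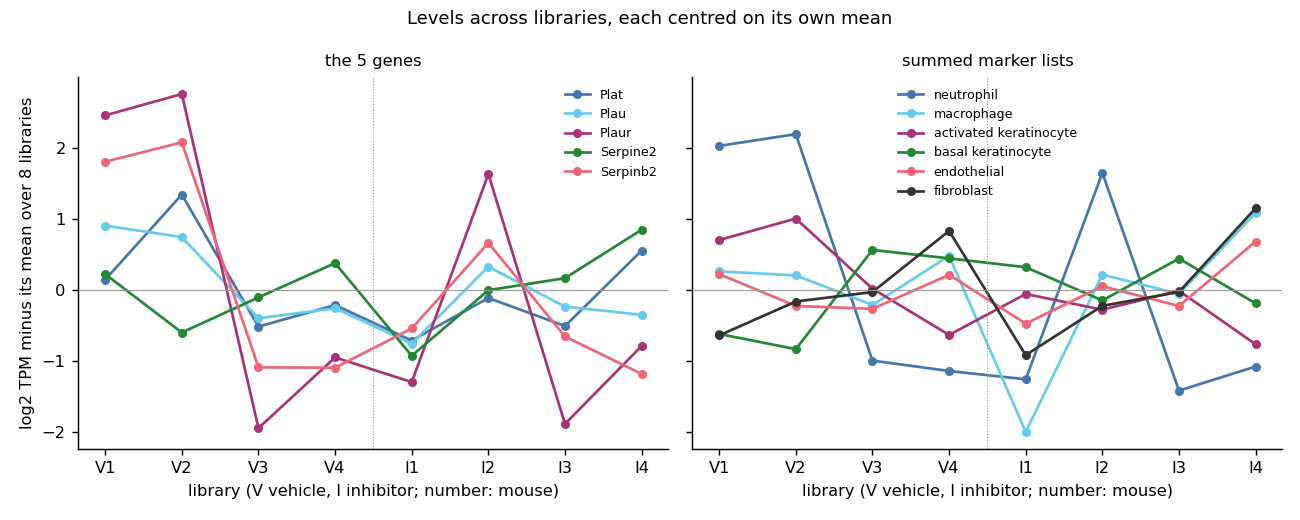
Log2 TPM minus its mean over the 8 libraries (vertical axis) for the 5 genes (left) and for summed marker lists (right), library by library, with vehicle ears left of the dotted line and inhibitor ears right of it. Plaur, Serpinb2 and the neutrophil sum are high in vehicle mice 1 and 2 and inhibitor mouse 2, and Serpine2 follows another course.

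The balance between the genes also varied between ears. Plau made up 69.0% to 87.5% of the summed level of the activators, with a mean Plau-to-Plat ratio of 4.58 ± 1.80 in the vehicle group and 4.23 ± 1.49 in the inhibitor group (SD, n = 4). These ratios differed by less than the spread between mice. Receptor and ligand were far from a fixed ratio. Plaur over Plau was 10.7, 14.7, 1.25 and 2.26 in vehicle mice 1 to 4 and 2.51, 8.98, 1.16 and 2.69 in inhibitor mice 1 to 4. Vehicle mice 1 and 2 and inhibitor mouse 2, the ears with the most Plaur, had the highest ratios. Plaur is the numerator and ranged 25.9 times over the ears, against 3.16 times for Plau, so these ratios largely restate the Plaur levels. Serpinb2 over Serpine2 was 9.62, 20.5, 1.63 and 1.16 in vehicle mice 1 to 4 and 4.20, 5.10, 1.83 and 0.791 in inhibitor mice 1 to 4, so Serpine2 exceeded Serpinb2 only in inhibitor mouse 4. The summed serpins exceeded the summed activators in all 8 ears, by 3.00 to 7.08 times in the vehicle group and 3.21 to 4.68 times in the inhibitor group. Transcript ratios do not give the balance of active proteins.

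**Figure D4:**
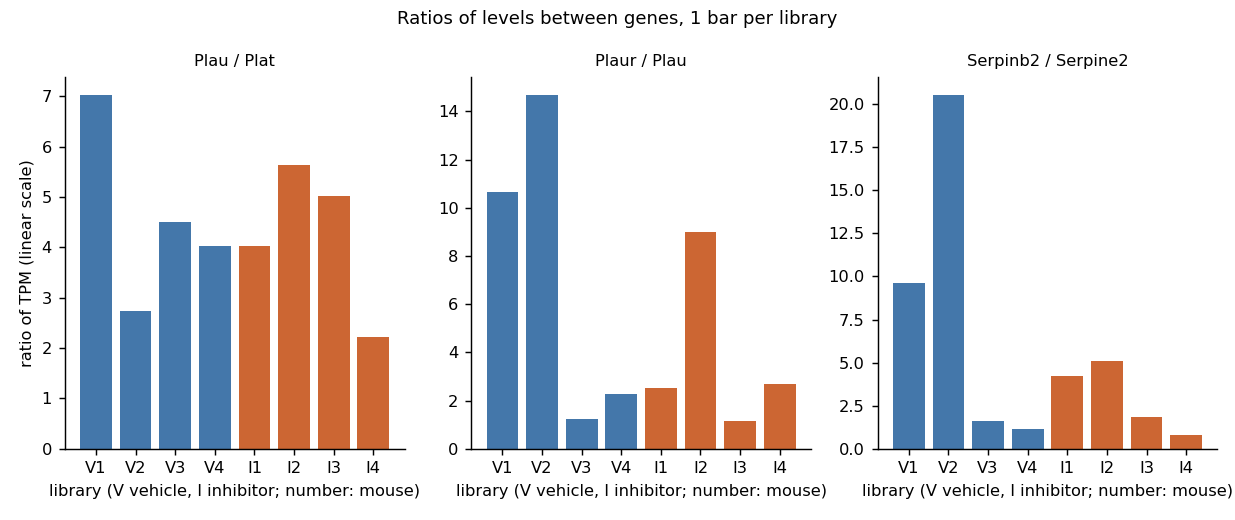
Ratios of TPM levels between genes (vertical axes, linear, starting at 0), 1 bar per library, with vehicle ears (V) and inhibitor ears (I) numbered by mouse. Plaur over Plau and Serpinb2 over Serpine2 are highest in vehicle mice 1 and 2, at 14.7 and 20.5 in vehicle mouse 2, while Plau over Plat keeps within 2.22 to 7.03.

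Likeness between profiles was taken as the root mean square difference between log2(CPM + 1) profiles over the 8 libraries, each centred on its own mean. For Plaur, the difference was 0.76 from Serpinb2, 1.33 from Plau, 1.47 from Plat and 1.95 from Serpine2. Over 14503 other genes with a mean of at least 1 CPM, the profiles nearest to Plaur were those of Ppp1r15a (0.19), a phosphatase subunit of the integrated stress response, Arg2 (0.19), the mitochondrial arginase, and the predicted gene Gm30732 (0.22). Nearest to Serpinb2 were Lce3c (0.18), a late cornified envelope gene, Ifi202b (0.20), an interferon-induced gene, and Prl2c5 (0.22), a member of a family of closely similar prolactin-like genes whose reads may be shared. Plau lay nearest to Htra4 (0.088), a serine protease gene, Carhsp1 (0.098) and Rel (0.103), the last of which encodes the NF-kB subunit c-Rel. Plat lay nearest to Kctd11 (0.20) and Cilp2 (0.22), and Serpine2 to Fut4 (0.102), Nceh1 (0.103) and Lrrc8c (0.12). A small amplitude lowers this measure, so values for different members should not be ranked against each other. The 1 CPM added before the logarithm also flattens the profiles of genes near the floor. Among these were Htra4, at 0.685 to 6.82 CPM, and Prl2c5, at 0 CPM in some libraries.

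No gene of the wider plasminogen system passed the test either. Of 94 genes listed by role, 92 were in the table and 78 had enough reads to be tested. Of these 78, 33 estimates lay above 0 and 45 below 0. Over all genes tested, 6873 of 15096 were below 0, or 45.5%, a smaller share than in the list. The median log2 fold change of the 78 was -0.13, beside 0.026 over all genes tested, and for the 5 members it was -0.77. The list's median lay close to or above 0 under several other settings. It was -0.0038 with total counts, where the median of all genes was 0.12. With voom quality weights it was 0.032, where the median of all genes was 0.012. An unadjusted p under 0.05 was found for 1 of the 78, beside 1.04% of all genes tested. Every tested gene named below had an edgeR adjusted p of 0.999.

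The zymogen gene Plg, which the liver expresses, had at most 2 reads in any ear and was not tested. Serpini1, the gene of neuroserpin, which inhibits tissue-type activator, was low, at 1.08 ± 1.05 TPM with the inhibitor against 4.24 ± 4.72 TPM with vehicle. Only 4 of 10 genes in this list of plasminogen and its inhibitors could be tested, 2 with a higher and 2 with a lower estimate. Their log2 fold changes ran from -2.27 to 0.075, with a median of -0.53.

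Genes for proteins that hold plasminogen or urokinase at the cell surface had 9 lower and 4 higher estimates, with a median log2 fold change of -0.29. Itgav, the integrin alpha V chain, had 13.5 ± 2.06 TPM with the inhibitor and 17.4 ± 5.66 TPM with vehicle. Eno1, the glycolytic enzyme enolase that also serves as a plasminogen receptor, had 847 ± 228 and 1088 ± 392 TPM. Among 7 tested clearance receptors the median was -0.021, and Sort1, the sorting receptor sortilin, had 10.5 ± 2.31 TPM with the inhibitor against 7.96 ± 5.51 TPM with vehicle. Igf2r, a receptor for mannose 6-phosphate that also binds the urokinase receptor, had 9.40 ± 1.75 and 9.11 ± 0.532 TPM. Its edgeR estimate had the other sign, with a log2 fold change of -0.12 (SE 0.18). These differences lay within the spread between mice.

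Fibrin and coagulation genes were evenly divided, with 7 higher and 7 lower estimates and a median log2 fold change of -0.066. Procr, the endothelial receptor of protein C, had 200.4, 255, 19.97 and 23.7 TPM in vehicle mice 1 to 4. In inhibitor mice 1 to 4 it had 33.1, 69.0, 24.6 and 30.9 TPM. The same 3 ears as for Plaur were the highest, and the groups overlapped. Fgg, a fibrinogen chain gene, was near the limit of detection at 0.470 ± 0.211 TPM with the inhibitor and 0.980 ± 0.576 TPM with vehicle. Of proteins that plasmin or urokinase can activate or release, 6 of 11 had a higher estimate, with a median of 0.037. Vegfa, the vascular growth factor, had 32.1 ± 18.2 TPM with the inhibitor against 75.0 ± 59.6 TPM with vehicle, and Tgfb1, a latent cytokine, 97.5 ± 29.6 against 116 ± 30.6 TPM.

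The relatives of Serpinb2 and Plaur did not all share their course. Among the 16 tested of 17 listed clade B serpins, the largely intracellular family of Serpinb2, 8 estimates were higher and 8 lower, with a median log2 fold change of 0.0096. The list does not hold every member of that family, and Serpinb1c, which it left out, had a log2 fold change of 1.27 (SE 0.70). Serpinb1b had 1.34 ± 0.570 TPM with the inhibitor and 4.87 ± 5.54 TPM with vehicle, while Serpinb1a, which encodes an inhibitor of neutrophil proteases, had 87.5 ± 17.5 and 60.4 ± 33.7 TPM. The serpins Serpinb1a and Serpinb1b are close copies, so reads may be shared between them. In the Ly6 family, to which the urokinase receptor belongs, 9 of 13 estimates were lower, with a median of -0.35. Lypd3, a receptor-like protein of upper epidermal keratinocytes, was the gene with an unadjusted p under 0.05, at 97.8 ± 21.4 TPM with the inhibitor against 188 ± 83.7 TPM with vehicle and a log2 fold change of -1.18 (SE 0.43). Its groups overlapped, and Ly6a, a surface marker of stromal and stem cells, had 1798 ± 331 against 1354 ± 426 TPM.

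**Figure D5:**
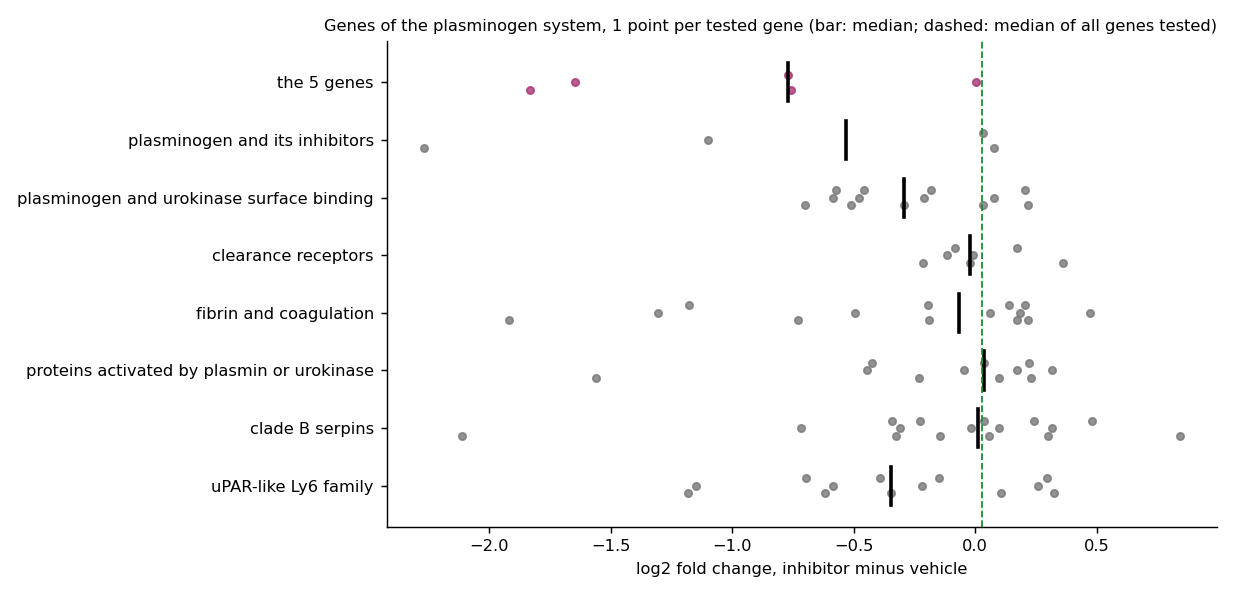
Log2 fold change, inhibitor minus vehicle (horizontal axis), of each tested gene of the plasminogen system, grouped by role, with a bar at the median of each group and a dashed line at the median of all 15096 genes tested. The points spread on both sides of 0 in every list, and the median of the 5 genes, -0.77, is the lowest.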

How the data were processed

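Per the labels' protocols, polyadenylated RNA of 8 mouse ears gave single-end 50-base reads (DNBSEQ). HISAT and build GRCm39 are named in the submitters' processing notes, while the counter and its strand setting were not given in the sources used here. Deposited by the authors were expected counts, TPM and FPKM per gene and library, and 33.7% to 35.3% of the expected counts were not whole (tolerance 1e-09). The authors' 6 columns of means were not used. Groups come from the sample titles, which number separate mice. Libraries of 1 group differed well beyond sampling noise (chi-square per degree of freedom 23.7 to 304).

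Expected counts were rounded, filtered with filterByExpr (15096 genes left) and scaled with TMM factors between 0.815 and 1.08 in edgeR 4.0.16 under R 4.3.3. Groups were compared (inhibitor minus vehicle, 8 libraries, no covariate) by quasi-likelihood F-test, with a Benjamini-Hochberg adjusted p threshold of 0.05 over all genes. The standard error is the absolute log2 fold change divided by the square root of the F statistic, and the median over genes was 0.26. Levels are the deposited TPM. The deposited FPKM values entered 1 alternative. Other alternatives used DESeq2 1.42.0, limma 3.58.1, other scalings and filters, a block by mouse number, left-out libraries, and mice 1 and 2 or 3 and 4 only.

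Same-numbered mice tended to deviate together, with correlations of their deviations from the group means of 0.36, 0.75, 0.71 and 0.68 for mice 1 to 4. Only 6 of the 8 libraries correlated best with the same-numbered mouse of the other group. A pairing by number would rest on these correlations from the same data, all over 0.1 between same-numbered mice, and not on the labels. The test reported used no pairing, and the block by mouse number was an alternative only. The 5 genes, the lists, the division of mice and the rule for named genes were chosen with earlier results of these data known. By that rule, the 2 tested genes of each pathway list with the smallest p and the 3 profiles nearest to each member were named, except 2 genes that are not reported here, and Plg, Serpinb10 and Serpinb1c were named after their values were seen. Promoters are of build GRCm38.p6, and no coordinates of the authors' build are given.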

Additional observations from a re-analysis of the deposited data

Results flagged for a closer look

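In the inhibitor group, Plaur in mouse 2 stood far from the other 3 mice. Its 449 TPM lay above 39.4, 59.3 and 84.3 TPM, and the gap to the nearest of them was 0.891 of the whole range of the group, past Dixon's 95% limit for 4 samples. Among 18 sets of 4 values screened this way, all on the linear scale, 1 passed. Chance passes about 1 in 20 where values are normally distributed. Some sets were ratios of the same genes, so the 18 were not independent. On the log2 scale Plaur was 5.89, 8.81, 5.30 and 6.40 in inhibitor mice 1 to 4, and that scale was not screened. Neutrophil markers summed to 27396 TPM in the same ear against 3288 to 4157 TPM in the others. Red blood cell markers summed to 6037 TPM there against 220 to 1082 TPM, and the part of either was not tested.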

How the results depend on the processing

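No setting called any gene: the count was 0 under all 21 alternatives, the block by mouse number, left-out libraries and a threshold of 0.1 included, and genes at an unadjusted p under 0.05 rose from 157 to 724 with the block. The block gave log2 fold changes of -0.53 for Plat, -0.63 for Plau, -1.18 for Plaur, -0.99 for Serpinb2 and -0.068 for Serpine2, so it changed no call. With mice 3 and 4 only, a division chosen with these levels known, estimates turned positive for Plat (0.47), Plau (0.037), Plaur (0.12) and Serpinb2 (0.20), and the median of the wider list moved to 0.11. With voom quality weights they were 0.027 for Plat, 0.012 for Plau, -0.0036 for Plaur and 0.22 for Serpinb2. Serpine2 was -0.020 with DESeq2 size factors, -0.015 with DESeq2 and -0.51 with mice 1 and 2 only. The cause of these turns was not tested. In edgeR, Plaur without inhibitor replicate 2, Serpinb2 without vehicle replicate 3 or 4, and Plat and Serpinb2 with mice 1 and 2 only had unadjusted p-values under 0.05, with adjusted ones of 0.239 to 0.987. Over all genes, 386 of 15270 were under 0.05 without inhibitor replicate 2. The counts were 433 of 15317 without vehicle replicate 3 and 390 of 15259 without vehicle replicate 4. With mice 1 and 2 only, 2515 of 14924 genes were under 0.05.

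Leaving out 1 library at a time gave -1.03 to -0.035 for Plat, -1.11 to -0.52 for Plau, -3.39 to -1.09 for Plaur, -0.29 to 0.24 for Serpine2, -2.29 to -0.99 for Serpinb2 and -0.21 to -0.047 for the list median. The list median was -0.010 with at least 1 CPM in every library, -0.0038 with total counts, 0.032 with voom quality weights, 0.031 on log2(TPM + 1) and 0.019 on log2(FPKM + 1). On log2(TPM + 0.1) it was 0.056, where the median of all genes rose to 0.17, against 0.026 in the test reported. Total counts moved the median of all genes to 0.12, log2(TPM + 1) to 0.15 and log2(FPKM + 1) to 0.11. With 4 mice a group and this spread, the 95% intervals of Plaur and Serpinb2 reach from a large fall to a rise. On the log2 scale they run from -4.74 to 1.08 for Plaur and from -3.73 to 0.44 for Serpinb2.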
